A study of Mus musculus with 6 samples.

Results

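DNA replication origin and fork genes were followed in wild-type (WT) mouse intestinal organoids, epithelial structures cultured from gut stem cells. The members are the 53 rows of the deposited table, of 24786 gene symbols in all, whose symbol is on a list of replication genes. All 53 were found and all 53 had enough counts to be tested. They were sorted by role into origin recognition and licensing (9 genes), helicase (12), origin firing (6), clamp and clamp loader (8), polymerase, primase and lagging strand (11), and single-strand binding and fork protection (7). RNA was sequenced from 6 libraries. In both groups the organoids were first dissociated over 10 min; 3 libraries then came from cultures given tyramine, an amine that gut bacteria make from tyrosine, at 100 µM for 16 h (titled TA100), and 3 from controls. Control titles carry the solvent name DMSO, while the series' design speaks of control medium, and no further agent or allele is named for either group. The labels do not tie replicates to different mice or cultures. The p-values therefore set the group difference against the spread of these libraries only, and that spread may be technical.

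Replication starts at origins, where the origin recognition complex, with Cdc6 and Cdt1, loads the ring of Mcm subunits onto DNA before S phase. Kinases and loading factors then add Cdc45 and the GINS complex to turn each ring into an active helicase, and the polymerases follow behind it, held to DNA by the sliding clamp PCNA. In the gut epithelium this machinery belongs to the dividing cells of the crypt, and many of its genes are transcribed by E2F factors as cells leave G1.

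The libraries held 28316372 to 35035955 counts. Of all counts, the members held 0.267% to 0.275% in control libraries and 0.0746% to 0.0887% in tyramine libraries. Scatter was larger in the tyramine group. The median coefficient of variation (SD as a percent of the mean) of the members was 11.01% in controls and 43.96% with tyramine. Over all genes tested it was 15.9% and 28.4%. Genes at 0 counts in a whole group have no such coefficient there and were left out, which removes Dscc1 from the tyramine median. Member counts were lower with tyramine, and the part of low counts in this scatter was not tested. Tyramine replicate 3 was the lowest of its group for 25 of the 53 members. The 9 epithelial markers were all measured, at a summed 16729 to 17794 CPM (counts scaled to the size of each library) in controls and 16102 to 17714 with tyramine, whereas 6 fibroblast, 5 endothelial and 6 immune markers summed to at most 9.12, 3.02 and 4.56 CPM in any library. The 4 smooth muscle markers summed to 12.6 to 12.9 CPM in controls and 17.4 to 23.2 CPM with tyramine, with none past the test, and the 4 of glia and neurons to 1.25 to 4.196 and 1.11 to 1.24 CPM. Of the epithelial markers, Epcam, Vil1 and Cdx2 fell and Cdh1 and Krt18 rose; their part in the results below was not tested.

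Replication genes were mostly lower with tyramine. Of 53 members, 36 fell, Orc4 rose and 16 missed the threshold, an adjusted p under 0.05 in edgeR's quasi-likelihood test (Benjamini-Hochberg, over 12139 genes); of all genes tested, 13.3% were called lower, 12.5% higher and 25.8% in either direction. The median log2 fold change (tyramine minus control) was -2.23 over the members and 0.00 over all genes tested. Falls of at least 4-fold were called for 29 members, against 5.09% of all genes tested. In 43 members every tyramine library lay below every control library, which held for 23.6% of all genes tested, and in Orc4 every one lay above, which held for 20.9%. These are bulk RNA samples, so fewer replicating cells and less of these RNAs per cell cannot be told apart. Leaving out control replicate 1, 2 or 3 left 29, 27 and 29 members called lower.

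**Figure D1:**
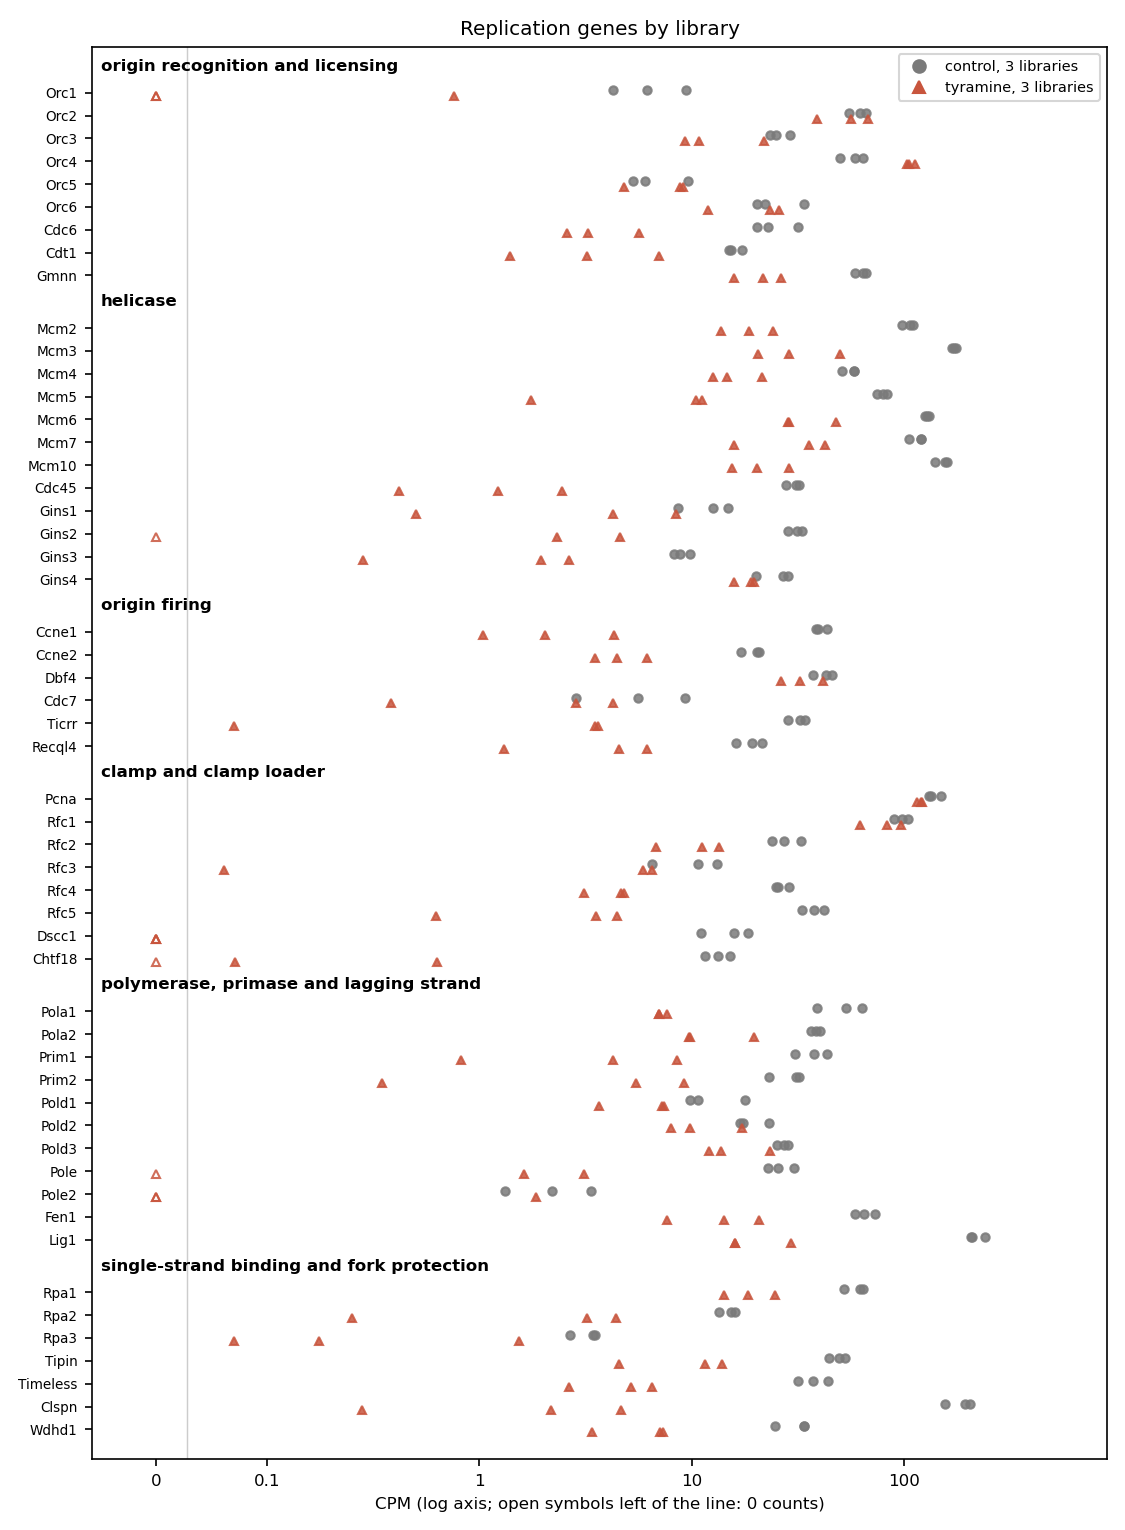
CPM of each of the 53 members in each library on a log axis, grouped by role, with grey circles for the 3 controls, triangles for the 3 tyramine libraries and open symbols for 0 counts. Tyramine symbols lie left of the control symbols in 43 members and right of them in Orc4, and Dscc1 is at 0 counts in all 3 tyramine libraries.

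Sums were taken over each of the 6 role groups. Summed over its genes, the helicase group went from 902 to 919 CPM in controls to 175 to 222 CPM with tyramine, and the fork protection group from 362 to 387 CPM to 32.2 to 57.7 CPM. The origin recognition and licensing group moved least, from 281 to 294 CPM to 210.3 to 244 CPM. As a share of the summed CPM of all members, that group took 10.5% to 11.1% in controls and 26.8% to 29.2% with tyramine. Its own sum was lower with tyramine, so the larger share comes from the lower sum of all members. The 17 members that did not fall took 21.6% to 22.03% of the summed member CPM in controls and 55.1% to 62.4% with tyramine. Those 17 were sorted by their own change in these same libraries, so a larger share with tyramine follows from the sorting.

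**Figure D2:**
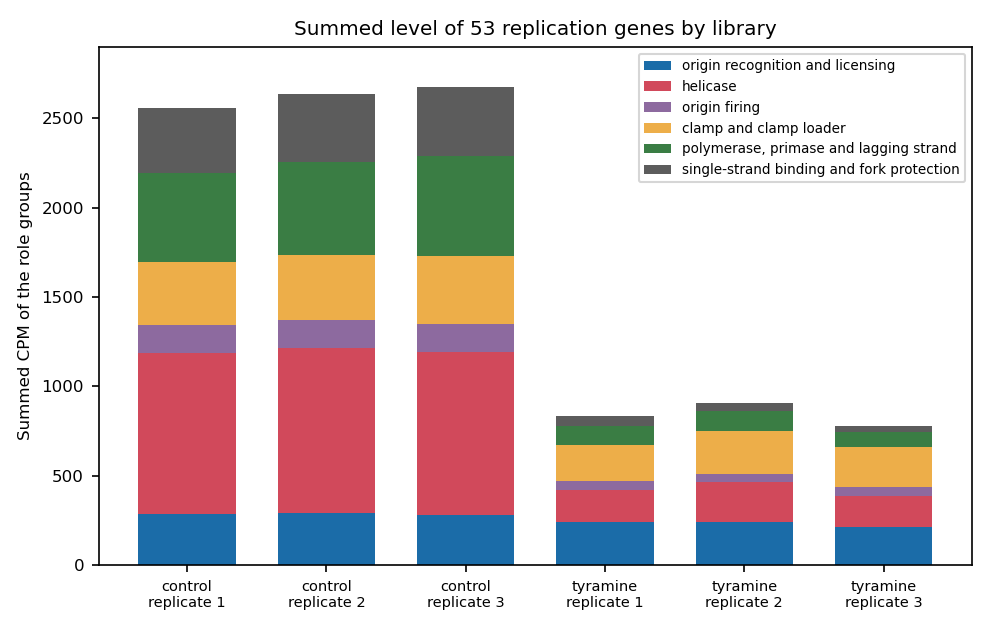
Summed CPM of the members by role group, stacked, for each of the 6 libraries. Control bars reach 2559 to 2677 CPM and tyramine bars 777 to 906 CPM; the origin recognition segment is the least changed and the helicase segment shrinks from over 902 to at most 222 CPM.

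Origin recognition and licensing was the group of mixed directions: 4 of 9 genes fell, 1 rose and 4 missed the threshold; the median log2 fold change was -0.89. Of the 6 subunits of the origin recognition complex, Orc1 fell, Orc4 rose and the other 4 were not past the threshold. Orc4, a core subunit (GRCm38 chromosome 2, 48902824 to 48950277, minus strand), stood at 50.1, 58.6 and 63.7 CPM in control replicates 1 to 3 and 105, 113 and 103 CPM in tyramine replicates 1 to 3. All 3 tyramine libraries were higher than all 3 controls, a rise of 1.86-fold (log2 fold change 0.90 ± 0.14 SE; adjusted p = 0.00133 by edgeR). Exons of Orc4 overlap those of Acvr2a and Mbd5 on the other strand, and the strand setting of the counting is not given; neither neighbour passed the test (log2 fold changes -0.07 and 0.31), and their part in the Orc4 value was not tested.

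Orc1, the largest subunit and a known E2F target (chromosome 4, 108579423 to 108614833, plus strand), had 9.35, 4.25 and 6.14 CPM in controls and 0, 0.755 and 0 CPM with tyramine. Its 24 counts in the tyramine group were all in replicate 2, and all 3 tyramine values lay under the controls. It fell 26.2-fold (log2 fold change -4.67 ± 1.49 SE; adjusted p = 0.0443 by edgeR), a call lost without any 1 control library or tyramine replicate 1. The other subunits were not past the threshold. Orc2 was at 55.05, 65.95 and 61.6 CPM in controls and 67.6, 56.02 and 38.99 with tyramine, and Orc5, the member with the change nearest to 0, at 9.61, 6.03 and 5.30 and 8.83, 4.78 and 9.05 CPM. The groups overlapped for both genes. Orc6 overlapped too (log2 fold change -0.32), while Orc3 was lower in all 3 tyramine libraries (log2 fold change -0.89 ± 0.35 SE, adjusted p = 0.091 by edgeR). Orc3 was called lower with limma-voom, with or without group quality weights, and without tyramine replicate 2.

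The licensing factors that act on this platform fell. Cdc6, the ATPase that joins the complex to load the Mcm ring (chromosome 11, 98907801 to 98923940, plus strand), had 31.6, 22.8 and 20.2 CPM in controls and 2.58, 5.63 and 3.24 CPM with tyramine. No tyramine library came near the lowest control, and the gene fell 6.52-fold (log2 fold change -2.70 ± 0.39 SE; adjusted p = 0.00083 by edgeR). Gmnn, which encodes geminin, the inhibitor that holds Cdt1 (chromosome 13, 24751845 to 24761923, minus strand), had 65.9, 58.4 and 63.8 CPM in controls and 15.8, 26.2 and 21.6 CPM with tyramine. It fell 2.96-fold with no overlap between groups (log2 fold change -1.56 ± 0.22 SE; adjusted p = 0.000675 by edgeR). Cdt1, the loading factor that geminin blocks, had 17.2, 15.3 and 14.98 CPM in controls and 7.03, 3.21 and 1.39 CPM with tyramine. It fell 4.08-fold, with a wide spread in the tyramine group (edgeR adjusted p = 0.0224), and the call was lost without any 1 control library or tyramine replicate 2. Without any 1 control library, 2 genes of the origin group fell.

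Most helicase genes fell. Of 12 genes 10 fell, 0 rose and 2 missed the threshold; the median log2 fold change was -2.42. In all 12 the tyramine libraries lay below the controls. Mcm2 to Mcm7 encode the 6 subunits of the ring that unwinds DNA ahead of the fork. Mcm2 (chromosome 6, 88883474 to 88898780, minus strand) had 97.5, 110.0 and 106 CPM in controls and 18.6, 24.2 and 13.6 CPM with tyramine. The controls were within a narrow band and each tyramine library was well under it, a fall of 5.57-fold (log2 fold change -2.48 ± 0.22 SE; adjusted p = 3.55e-05 by edgeR). Mcm6 (chromosome 1, 128331590 to 128359664, minus strand) had 127, 125 and 130.4 CPM in controls and 28.2, 47.5 and 28.6 CPM with tyramine, highest in tyramine replicate 2. It fell 3.67-fold (log2 fold change -1.87 ± 0.21 SE; adjusted p = 0.00016 by edgeR). The remaining ring subunits also fell, by 5.20-fold for Mcm3, 3.42-fold for Mcm4, 10.1-fold for Mcm5 and 3.70-fold for Mcm7.

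The 6 subunits enter the ring in equal number, while their counts per kilobase of exon differed in both groups. The length used joins all annotated exons of a gene and can exceed that of the transcript made. It was 6.956 kb for Mcm2 and from 3.589 kb (Mcm4) to 4.666 kb (Mcm6) for the others. The ranges below therefore do not settle whether the RNA levels were unequal. Per kilobase of exon, the control means ran from 15.04 CPM per kb for Mcm2 to 45.7 CPM per kb for Mcm3, a range of 3.04-fold. With tyramine they ran from 1.95 CPM per kb for Mcm5 to 8.78 CPM per kb for Mcm3, a range of 4.51-fold. Mcm5 was the subunit with the largest fall: it had 11.2, 10.4 and 1.74 CPM in tyramine replicates 1 to 3, so replicate 3 alone sat far below the rest. Mcm7 showed another order, with 15.8, 35.4 and 42.4 CPM, where replicate 1 was the lowest. Exons of Mcm7 overlap those of Ap4m1 and Cops6 on the other strand, so its value is uncertain. Of the 53 members, 23 have an exon that overlaps an exon of another gene. Among them are Orc1, Cdc45, Rfc4, Rfc5, Fen1, Lig1 and Pole2. The part of the neighbours in these values was not tested.

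Factors that activate the ring also fell. Mcm10, which binds the assembled helicase at firing (chromosome 2, 4989714 to 5012791, minus strand), had 159, 139.9 and 155 CPM in controls and 28.8, 15.5 and 20.3 CPM with tyramine. The groups were far apart and it fell 7.03-fold (log2 fold change -2.81 ± 0.22 SE; adjusted p = 1.52e-05 by edgeR). Cdc45, the helicase co-factor, had 30.98, 27.9 and 31.9 CPM in controls and 2.44, 1.23 and 0.418 CPM with tyramine. It fell 22.2-fold (log2 fold change -4.47 ± 0.56 SE; adjusted p = 0.000332 by edgeR).

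The 4 GINS subunits, which join Cdc45 on the ring as a single complex, gave 2 falls; differences between subunits were not tested beyond the ratio given further on. Gins2 had 28.2, 32.9 and 31.1 CPM in controls and 2.33, 0 and 4.59 CPM with tyramine, with 0 counts in replicate 2, and fell 13.3-fold (edgeR adjusted p = 0.029). Gins3 fell 5.52-fold (edgeR adjusted p = 0.0381). Both calls were lost without any 1 control library, and that of Gins2 also without tyramine replicate 1, with DESeq2, with the replicate block or with no filter on low counts. Gins1 had 4.24, 0.503 and 8.46 CPM with tyramine, and was not past the threshold (log2 fold change -1.45 ± 0.77 SE, adjusted p = 0.212 by edgeR). It was called lower with limma-voom, with or without group quality weights, and without tyramine replicate 3. Gins4, the helicase gene with the change nearest to 0 (chromosome 8, 23226616 to 23237659, minus strand), had 28.2, 26.96 and 20.1 CPM in controls and 19.5, 15.8 and 19.1 CPM with tyramine. Its groups did not overlap, but the difference was not past the threshold (log2 fold change -0.47 ± 0.25 SE; adjusted p = 0.209 by edgeR).

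Promoter sequence was not used to choose the members. RefSeq promoters on GRCm38.p6, from 250 bases before to 50 after a start, were matched for 41 of the 53 members and searched on both strands for 4 words of the E2F-type site: TTTGGCGC, TTTCCCGC, TTTCGCGC and TTTGCCGC. At least 1 word was found in 16 of the 41 (39.0%), against 4.69% of 9503 tested genes and 2.60% of all 27025 genes with a promoter in the table. The words were in 11 of 26 members that fell and in 5 of 15 that did not. CCAAT, the NF-Y box, was in 24 of the 41 (58.5%) and in 43.4% of tested genes. A match is a description of the letters and not of factor binding, and the words can overlap each other on opposite strands.

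The bases before the start are shown for 3 genes that fell and hold such words, and for Pcna, which was not past the threshold and holds none in its window. Capitals mark E2F-type words on either strand, and each run is read 5′ to 3′ on the gene's strand. The Pcna run ends where its GENCODE transcripts begin. It covers bases -250 to -136 from the RefSeq start, while the other runs reach base -1.
Mcm5, chr8:75109349-75109508, plus strand: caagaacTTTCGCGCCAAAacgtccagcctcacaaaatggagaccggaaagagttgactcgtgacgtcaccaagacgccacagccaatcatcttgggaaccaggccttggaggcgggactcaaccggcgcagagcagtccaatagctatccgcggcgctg
Mcm6, chr1:128359706-128359825, minus strand: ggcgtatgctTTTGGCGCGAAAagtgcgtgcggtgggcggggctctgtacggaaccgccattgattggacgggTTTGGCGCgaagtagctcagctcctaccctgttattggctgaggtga
Pola1, chrX:93632156-93632305, minus strand: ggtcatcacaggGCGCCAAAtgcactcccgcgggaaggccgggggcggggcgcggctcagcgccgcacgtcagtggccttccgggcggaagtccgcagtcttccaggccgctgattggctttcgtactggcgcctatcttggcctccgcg
Pcna, chr2:132253316-132253430, minus strand: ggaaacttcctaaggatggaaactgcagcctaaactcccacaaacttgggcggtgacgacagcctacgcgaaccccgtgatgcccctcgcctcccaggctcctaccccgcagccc
In Mcm5 and in the upstream site of Mcm6, 2 words on opposite strands overlap to form a 12-letter run, and Mcm6 has another word nearer its start. Pola1 has a single word on the opposite strand.

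Of 6 origin firing genes, 4 fell, 0 rose and 2 missed the threshold; the median log2 fold change was -2.14. Ccne1 and Ccne2 encode the E-type cyclins that drive CDK2 at the G1-S boundary. Ccne1 (chromosome 7, 38097984 to 38107534, minus strand) had 38.3, 39.3 and 43.4 CPM in controls and 4.31, 2.04 and 1.04 CPM with tyramine. All 3 tyramine values were a small part of any control, a fall of 16.4-fold (log2 fold change -4.03 ± 0.47 SE; adjusted p = 0.000217 by edgeR). Ccne2 (chromosome 4, 11191351 to 11204779, plus strand) had 20.8, 20.2 and 17.02 CPM in controls and 3.50, 6.13 and 4.42 CPM with tyramine. It fell 4.13-fold with no overlap (log2 fold change -2.04 ± 0.36 SE; adjusted p = 0.00232 by edgeR).

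Recql4, a helicase-family protein needed to start replication (chromosome 15, 76703553 to 76710548, minus strand), had 19.1, 21.3 and 16.1 CPM in controls and 1.31, 6.13 and 4.56 CPM with tyramine. Its tyramine values scattered, with replicate 1 lowest, but stayed under the controls, a fall of 4.71-fold (log2 fold change -2.23 ± 0.53 SE; adjusted p = 0.0113 by edgeR; 0.0547 without control replicate 2). Ticrr, which encodes treslin, the factor that brings Cdc45 to origins under CDK control, fell 13.2-fold (edgeR adjusted p = 0.0136; 0.0510 with no filter on low counts). The kinase that phosphorylates the Mcm ring, Cdc7 with its activator Dbf4, was not past the threshold in either part. Dbf4 (chromosome 5, 8396973 to 8422716, minus strand) had 37.3, 42.97 and 45.7 CPM in controls and 32.4, 26.2 and 41.5 CPM with tyramine, and the groups overlapped (log2 fold change -0.33 ± 0.22 SE; adjusted p = 0.316 by edgeR). Cdc7 was low and variable in both groups, at 9.32, 2.85 and 5.58 CPM in controls and 4.24, 2.86 and 0.383 CPM with tyramine.

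**Figure D3:**
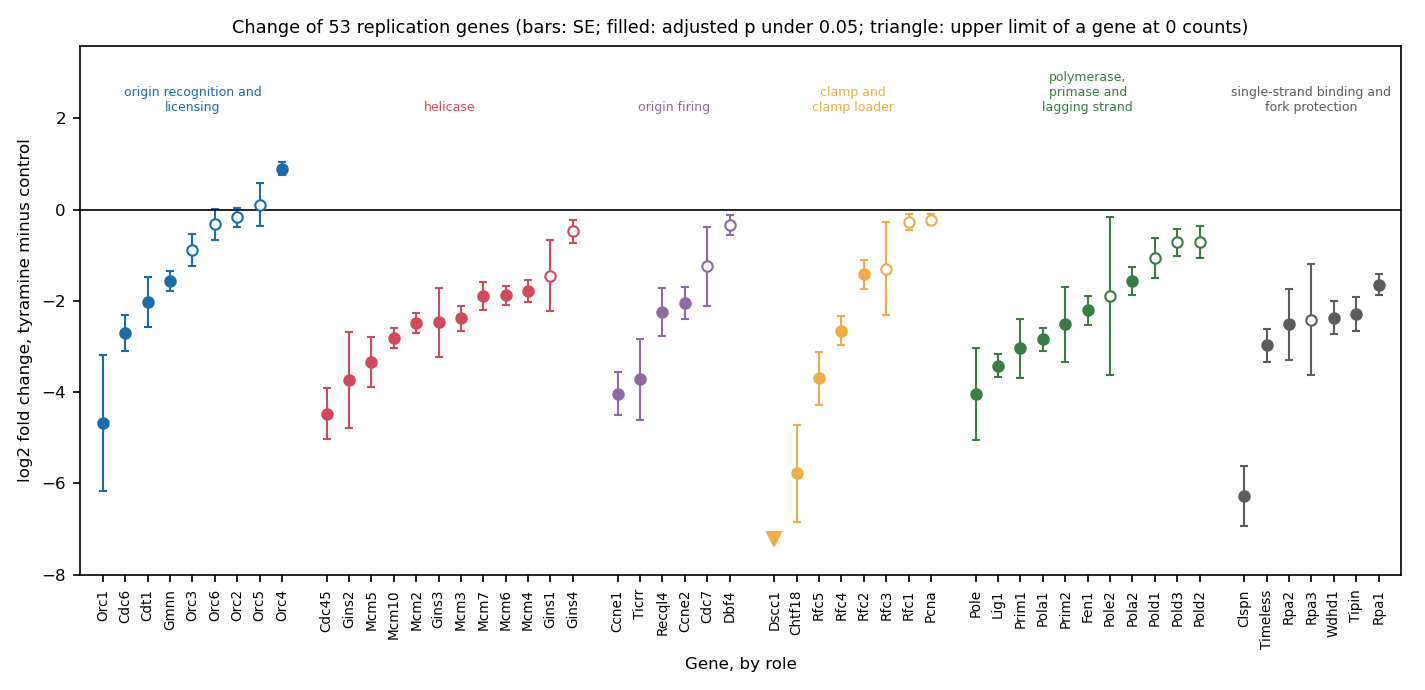
Fitted log2 fold change (tyramine minus control) of each member with its SE, by role and sorted within role; filled symbols passed an adjusted p under 0.05 and the triangle marks the upper limit for Dscc1, at 0 counts in the tyramine libraries. Orc4 is the filled symbol above 0, at 0.90; Pcna, Rfc1, Dbf4 and Gins4 lie between -0.47 and -0.22.

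Of 8 clamp and clamp loader genes, 5 fell, 0 rose and 3 missed the threshold; the median log2 fold change was -2.03. Pcna, the sliding clamp (chromosome 2, 132249162 to 132253314, minus strand), had 131, 133 and 148 CPM in controls and 121, 119.6 and 114 CPM with tyramine. The tyramine libraries lay just under the controls and the difference was not past the threshold (log2 fold change -0.22 ± 0.11 SE; adjusted p = 0.199 by edgeR). Per kilobase of exon it had the highest mean level of all members in both groups, 57.3 CPM per kb in controls and 49.3 with tyramine. It made up 5.06% to 5.55% of the summed member CPM in controls and 13.2% to 14.7% with tyramine. Its own level was not higher with tyramine, so the larger share comes from the lower sum of the members.

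Of replication factor C, the 5-subunit loader that opens the clamp, 3 subunits fell and 2 missed the threshold. Rfc4 (chromosome 16, 23113943 to 23127737, minus strand) had 28.7, 24.8 and 25.4 CPM in controls and 4.62, 4.81 and 3.10 CPM with tyramine. The 2 groups were tight and apart, a fall of 6.29-fold (log2 fold change -2.65 ± 0.31 SE; adjusted p = 0.000242 by edgeR). Rfc5 (chromosome 5, 117378103 to 117389047, minus strand) had 33.02, 41.8 and 37.5 CPM in controls and 4.45, 3.55 and 0.627 CPM with tyramine. It fell 13.02-fold, and tyramine replicate 3 was the lowest (log2 fold change -3.70 ± 0.58 SE; adjusted p = 0.00127 by edgeR). Rfc2 fell 2.67-fold (edgeR adjusted p = 0.00876; 0.0554 without control replicate 2). Rfc1, the large subunit, had 97.2, 89.5 and 104 CPM in controls and 61.9, 96.2 and 82.99 CPM with tyramine, which overlapped (log2 fold change -0.27; edgeR adjusted p = 0.294). Rfc3 was not past the threshold either, with 5.86, 0.0629 and 6.47 CPM with tyramine, replicate 2 holding 2 counts.

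Of the 3 subunits that turn this loader into its cohesion-linked form, Dscc1 and Chtf18 had few or no counts with tyramine. Dscc1 (chromosome 15, 55076099 to 55090491, minus strand) had 11.1, 15.8 and 18.3 CPM in controls and 0 counts in all 3 tyramine libraries. Against a floor of 3 counts per library it fell at least 148-fold (edgeR adjusted p = 6.34e-05). That bound assumes independent counts; values of 1 to 8 counts were even in 72.6% to 78.7% of cases per library, so the counts are not taken as independent molecules. Chtf18, its partner in the same loader, had 15.1, 11.5 and 13.3 CPM in controls and 0.0706, 0.629 and 0 CPM with tyramine. It fell 57.1-fold, and its 22 tyramine counts were 2, 20 and 0 (log2 fold change -5.78 ± 1.06 SE; adjusted p = 0.00317 by edgeR). Chtf8, the remaining subunit of that loader and not a member of the list, rose 1.49-fold (edgeR adjusted p = 0.0417). That call was lost without any 1 of the 6 libraries, with library totals alone, with no filter on low counts and with the replicate block, where adjusted p reached 0.16 at most.

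Among polymerase, primase and lagging strand genes, 7 of 11 fell, 0 rose and 4 missed the threshold; the median log2 fold change was -2.21. Lig1, the ligase that seals Okazaki fragments (chromosome 7, 13277283 to 13311433, plus strand), had 208, 206 and 240.4 CPM in controls and 15.96, 29.3 and 15.9 CPM with tyramine. All 3 tyramine libraries were far below, a fall of 10.7-fold (log2 fold change -3.42 ± 0.24 SE; adjusted p = 8.62e-06 by edgeR), the smallest p among the members. Fen1, the nuclease that trims the flap before ligation (chromosome 19, 10199132 to 10204169, minus strand), had 58.6, 64.4 and 73.1 CPM in controls and 7.66, 14.2 and 20.7 CPM with tyramine. It fell 4.62-fold with no overlap (log2 fold change -2.21 ± 0.32 SE; adjusted p = 0.000887 by edgeR).

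All 4 genes of the polymerase alpha-primase complex, which lays down each RNA-DNA primer, fell. Pola1, its catalytic subunit (chromosome X, 93304767 to 93632155, minus strand), had 39.01, 62.96 and 53.2 CPM in controls and 7.66, 6.98 and 7.03 CPM with tyramine. The tyramine values were nearly equal to each other, a fall of 7.16-fold (log2 fold change -2.84 ± 0.25 SE; adjusted p = 3.62e-05 by edgeR). Pola2 fell 2.94-fold, Prim1 8.20-fold and Prim2 5.73-fold (edgeR adjusted p = 0.0048, 0.00675 and 0.0498). Prim2 had 5.44, 9.18 and 0.348 CPM with tyramine, lowest in replicate 3, and its call was lost without any 1 control library or tyramine replicate 1, with DESeq2, with the replicate block and with no filter on low counts.

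Among the members that encode the 2 polymerases that extend the primers, Pole fell and 4 missed the threshold; Pole3, an accessory subunit of polymerase epsilon outside the member list, fell 1.68-fold (edgeR adjusted p = 0.0153), while Pole4 and Pold4 missed the threshold. These 3 genes were picked out after their values were seen, to complete both complexes. Pole, the catalytic subunit of leading-strand polymerase epsilon, had 25.5, 30.3 and 22.8 CPM in controls and 1.62, 3.11 and 0 CPM with tyramine. It fell 16.6-fold, with 0 counts in tyramine replicate 3 (log2 fold change -4.04 ± 1.01 SE; adjusted p = 0.0173 by edgeR), a call lost without any 1 control library or with no filter on low counts. Pole2, its second subunit, was at 1.32, 2.19 and 3.33 CPM in controls and 0, 0 and 1.84 CPM with tyramine, and was not past the threshold (edgeR adjusted p = 0.484, and 0.00742 without tyramine replicate 3, the only tyramine library with counts of it). The member genes of polymerase delta, which extends the lagging strand, were not past the threshold: Pold1, Pold2 and Pold3 had log2 fold changes of -1.06, -0.71 and -0.72. In refits, Pold2 was called lower without tyramine replicate 1, and Pold3 without that library or with limma-voom. Pold2, the gene of this group nearest to 0 (chromosome 11, 5872180 to 5878292, minus strand), had 17.4, 23.04 and 16.8 CPM in controls and 17.2, 9.85 and 7.97 CPM with tyramine, so tyramine replicate 1 reached the controls (SE 0.35; edgeR adjusted p = 0.179).

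Single-strand binding and fork protection genes fell in 6 of 7 cases, with 0 rising and a median log2 fold change of -2.41. In all 7 the tyramine libraries lay below the controls. Clspn, which encodes claspin, the mediator between a stalled fork and the checkpoint kinase CHK1 (chromosome 4, 126556935 to 126593903, plus strand), had 155, 193 and 203 CPM in controls and 4.62, 2.17 and 0.278 CPM with tyramine. The groups were far apart, and per kilobase of exon the mean went from 25.5 to 0.328 CPM per kb, a fall of 77.8-fold (log2 fold change -6.28 ± 0.66 SE; adjusted p = 0.000191 by edgeR). Timeless and Tipin encode the pair that couples the helicase to the polymerases. Timeless (chromosome 10, 128232065 to 128252941, plus strand) had 43.9, 31.6 and 37.3 CPM in controls and 5.19, 6.51 and 2.65 CPM with tyramine. It fell 7.86-fold with no overlap (log2 fold change -2.97 ± 0.36 SE; adjusted p = 0.00028 by edgeR), and Tipin fell 4.88-fold.

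Rpa1, the large subunit of replication protein A, which coats single-stranded DNA (chromosome 11, 75298166 to 75348324, minus strand), had 63.8, 62.2 and 51.9 CPM in controls and 24.7, 18.3 and 14.1 CPM with tyramine. It was the fork gene with the smallest fall, 3.12-fold (log2 fold change -1.64 ± 0.24 SE; adjusted p = 0.000818 by edgeR). Rpa2 fell 5.69-fold (edgeR adjusted p = 0.0395), a call lost without any 1 control library. Rpa3 had 3.42, 3.48 and 2.67 CPM in controls and 0.177, 1.54 and 0.0696 CPM with tyramine. It was not past the threshold (log2 fold change -2.41 ± 1.22 SE, adjusted p = 0.185 by edgeR), but was called lower without tyramine replicate 2. Wdhd1, which ties polymerase alpha to the helicase, fell 5.16-fold (edgeR adjusted p = 0.00103).

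**Figure D4:**
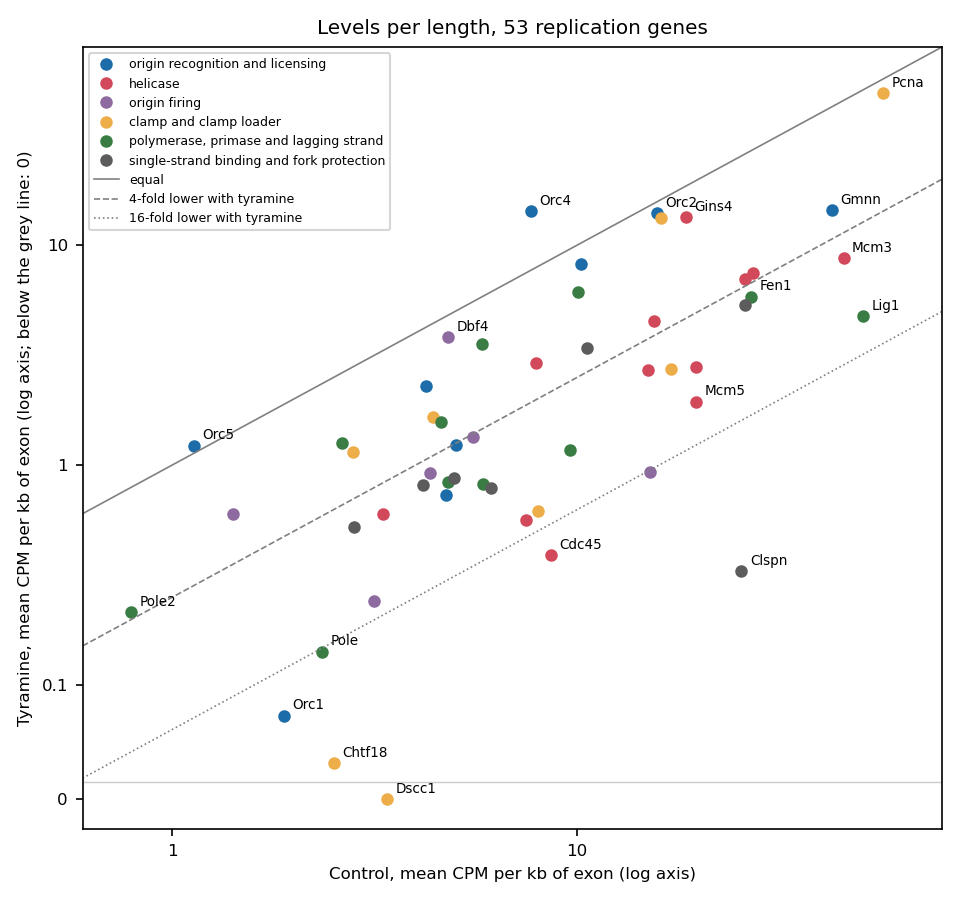
Mean CPM per kb of exon of each member in controls (horizontal) and with tyramine (vertical), both on log axes, coloured by role, with lines for equal levels and for levels 4-fold and 16-fold lower. Pcna is at the top right near the line of equal levels, Orc4 lies above that line, and Clspn, Chtf18 and Dscc1 lie furthest below it.

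Levels in controls and changes were set side by side as a description. Across the 53 members, log2 control CPM per kb and log2 fold change had a Pearson r of 0.09 and a Spearman rho of 0.06. Dscc1 entered with its fitted log2 fold change of -11.85, which rests on 0 tyramine counts and is not a measured size. These points are genes from the same libraries and not independent replicates. Highly expressed members were found among both the strong and the weak changes. In controls the highest levels per kilobase were those of Pcna (57.3), Lig1 (51.1), Mcm3 (45.7) and Gmnn (42.8 CPM per kb). With tyramine they were those of Pcna (49.3), Gmnn (14.5), Orc4 (14.3) and Orc2 (14.1 CPM per kb).

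Unequal change of partner genes was examined as the log2 ratio of their counts (1 added to each) within a library, which no scaling between libraries can alter. Of 8 pairs, 4 had ratios that did not overlap between groups. All 4 were lower with tyramine, but that direction depends on which gene of a pair is written first. With 3 libraries against 3, the two-sided exact permutation test cannot go below p = 0.1, which these 4 reached (0.2 after Benjamini-Hochberg adjustment over the 8), so none could pass a threshold of 0.05. The Ccne1 to Ccne2 ratio was 0.88, 0.96 and 1.35 in controls and 0.30, -1.57 and -2.05 with tyramine, lower in every tyramine library. The Rfc4 to Rfc1 ratio was -1.76, -1.85 and -2.04 in controls and -3.73, -4.31 and -4.73 with tyramine, the tightest of the 4. Gins2 to Gins4 and Orc1 to Orc2 moved by -4.99 and -5.79 on average, but both rest in part on libraries with 0 counts. Ratios of Gmnn to Cdt1, Dbf4 to Cdc7, Pole2 to Pole and Dscc1 to Chtf18 overlapped between groups (exact permutation p = 0.4, 0.5, 1 and 0.2).

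**Figure D5:**
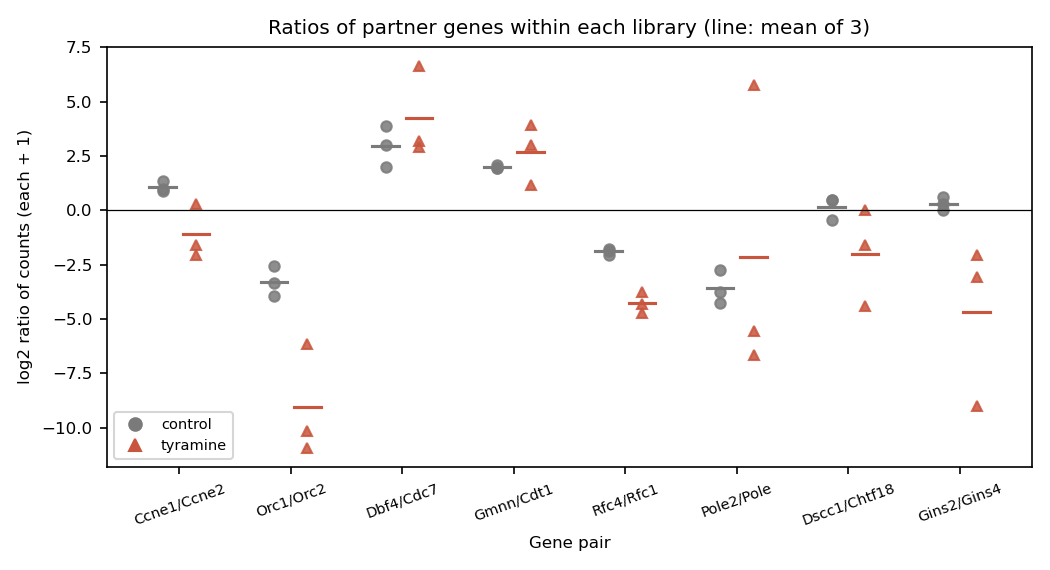
log2 ratio of counts (each plus 1) of 8 pairs of partner genes in each library, with circles for controls, triangles for tyramine and lines for the mean of 3. The ratios of Ccne1/Ccne2, Orc1/Orc2, Rfc4/Rfc1 and Gins2/Gins4 do not overlap between groups, and the Pole2/Pole ratio is spread from -6.64 to 5.75 in the tyramine group.

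Genes that act beside the origin and fork machinery are given from lists set by function, with earlier results of these data known. They are thus no independent check on the members. The counts below stand against 13.3% called lower and 12.5% called higher among all genes tested. Of 12 nucleotide supply genes, 7 fell and 0 rose (median log2 fold change -2.40). Rrm1 and Rrm2, the subunits of ribonucleotide reductase, went from 248, 276 and 304 CPM to 29.6, 23.8 and 16.1 CPM and from 116, 137 and 110.2 CPM to 2.72, 2.64 and 1.98 CPM. All tyramine libraries were far below the controls, and Rrm1 fell 11.9-fold and Rrm2 49.4-fold (edgeR adjusted p = 3.4e-06 and 1.96e-07). Of 12 genes of replication-coupled chromatin, 7 fell and 0 rose (median -1.63); Hells, a chromatin remodeller, fell 10.3-fold and Chaf1a, a histone chaperone that follows PCNA, fell 10.8-fold. Of 25 other replication factors, 10 fell and 2 rose (median -0.63). Topbp1, which helps to activate the helicase, fell 3.44-fold and Top2a, the topoisomerase of dividing cells, 59.5-fold, whereas Top1, the topoisomerase that relaxes DNA ahead of forks and of transcription, rose 1.75-fold. In this list 6 fell without control replicate 3, and Top1 alone rose without any 1 library, the call of Chtf8 being lost.

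In the list of G1-S and E2F control, 13 of 27 genes fell and 1 rose (median -1.50). Ccna2, the S-phase cyclin A2, fell 3.94-fold and Rbl1, which encodes the pocket protein p107, fell 5.13-fold (edgeR adjusted p = 1.52e-05 and 0.000389). Cdkn1a, the CDK inhibitor p21, had 47.2, 30.2 and 33.2 CPM in controls and 123, 108 and 117 CPM with tyramine. All tyramine libraries were above the controls and it rose 3.14-fold (log2 fold change 1.65 ± 0.19 SE; adjusted p = 0.000174 by edgeR). Leaving out control replicate 1 left 6 called lower.

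Of 10 replication checkpoint genes, 2 fell (Wee1 3.19-fold and Cdc25a 1.68-fold) and Rad17, a loader of the checkpoint clamp, rose 1.76-fold. Of all genes tested, 13.3% were called lower and 12.5% higher. Counts as small as these, here and for the polymerases below, do not set a list apart. In refits 0 fell without control replicate 1 or 2 and 1 fell without control replicate 3 or tyramine replicate 1. Without any 1 control library, 0 rose. The call of Wee1 was lost without control replicate 1 or 2, that of Cdc25a without any 1 control library, without tyramine replicate 1 or with the replicate block, and that of Rad17 without any 1 control library or with the replicate block. Of 12 repair, translesion and mitochondrial polymerase genes, 1 fell and 0 rose (median 0.38): Polq, DNA polymerase theta, was at 24.8, 29.1 and 32.9 CPM in controls and had 0 counts with tyramine, which is lower by at least 285-fold (edgeR adjusted p = 8.17e-06). As for Dscc1, that bound assumes independent counts, which the counts are not taken to be.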

How the data were processed

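RNA of 6 libraries was read as counts per gene symbol; the authors deposited these counts, which are whole numbers with no normalization. Reads were aligned with STAR 2.5.3a to mm10, per the submitters' processing notes; the sources used here do not give the counting program, annotation, strand setting or any use of molecular identifiers. Genes were kept by edgeR's filterByExpr (minimum count 10, minimum total 15), scaled by TMM and tested with edgeR 4.0.16 (quasi-likelihood, robust, group as the only term) in R 4.3.3, with Benjamini-Hochberg adjustment over all 12139 genes tested. The SE was taken as the absolute log2 fold change over the root of F. CPM are counts scaled to TMM-adjusted library size; genes at 0 in a group were set against a floor of 3 counts per library, which covers counting error only. Totals were 28316372 to 35035955 counts per library. Gene positions and exon lengths are from GENCODE M21 on GRCm38, and promoters from RefSeq on GRCm38.p6. Exon length joins all annotated exons of a gene, so levels per kilobase compare genes only roughly.

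The members and lists were chosen with earlier results of these data known. Values in every library are given for the 3 members of each role with the smallest p, the member whose change was nearest to 0 or most positive, each member that rose and each at 0 counts in a group, with single values where a complex is described; from each list, up to 2 called genes with the smallest p in each direction are named. Scripts were tested on simulated data. Alternatives were other scalings, no filter on low counts, DESeq2 1.42.0, limma-voom (limma 3.58.1), a replicate block and each library left out; limma-voom with group quality weights was added after seeing the data.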

Additional observations from a re-analysis of the deposited data

How the results depend on the processing

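The number of members that fell was 36 with RLE size factors or library totals alone, 32 with no filter on low counts, 34 with DESeq2, 39 with limma-voom, 38 with group quality weights, and 27 to 38 with 1 library left out; 1 member, Orc4, rose under all 13 alternatives. Of the 36, 26 kept their call under all 13. The median log2 fold change of the members was -2.32 with library totals alone, -2.47 with limma-voom with or without group quality weights, and -2.28 to -1.97 with 1 library left out. Replicate numbers are shared between groups, but same-numbered libraries had deviations correlated at only -0.02, -0.01 and 0.01, so the numbers were not taken to pair them. With the replicate block, 34 members fell with a median of -2.43, 1 other replication factor rose, and 1 replication checkpoint gene fell and 0 rose.

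Of the other replication factors, 1 (Top1) rose with library totals alone or with no filter. In nucleotide supply, 1 rose with DESeq2, limma-voom or group quality weights, and among repair, translesion and mitochondrial polymerases 2 rose with DESeq2 and 1 with group quality weights. With 1 library left out, 1977 to 3307 genes were called, 1035 to 1797 lower and 934 to 1510 higher. In the same refits 2 to 4 origin recognition and licensing genes fell, 6 to 12 other replication factors fell and 1 rose, 0 to 3 checkpoint genes fell and 0 to 1 rose, 6 to 13 genes of G1-S and E2F control fell, and 0 to 1 rose in both nucleotide supply and replication-coupled chromatin. Values that changed sign were the Orc5 log2 fold change (-0.056 without control replicate 3, -0.011 without tyramine replicate 1 and -0.037 without tyramine replicate 3; range -0.056 to 0.41), that of Orc2 (0.023 without tyramine replicate 3; range -0.36 to 0.023) and the difference in the Pole2 to Pole log2 ratio (-2.51 without tyramine replicate 3; range -2.51 to 3.69). The cause of these shifts was not tested. Groups of 3 limit the precision, and a lone outlying library cannot be told from spread.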
